A study of Mus musculus with 10 samples.

Results

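The lysosome is bounded by a membrane that carries heavily glycosylated structural proteins, ion channels, and transporters that export the products of digestion. The transcripts of 29 such proteins were followed here, chosen by name from the counts table of 78317 genes, in which each name occurred once. They were divided into 7 genes of ion channels, exchangers and their subunits, 15 genes of solute and lipid transporters (with the lysosomal transmembrane proteins Cln3, Laptm4a and Laptm4b, for which a carried solute is less settled), and 7 genes of structural glycoproteins and other membrane proteins. All 29 passed the filter on low counts. It asked, in at least 5 libraries, for the share of a library that 10 counts make at median depth, so fewer counts met it in shallow libraries.

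RNA was taken from embryonic fibroblasts of wildtype mice. They had been immortalized with T antigen, a viral protein that frees cells from p53 and retinoblastoma control. All cells were kept in complete medium at 37 °C and 10% CO2, after which 5 libraries came from cells held at 10% CO2 and 5 from cells held at 2% CO2 (hypocapnia) for 24 h. The labels give every library the same cell line name and no animal, clone or culture, so the results describe a single immortalized line, and the p-values measure a spread between libraries that may be technical. At each CO2 level, replicates 1 to 3 were labelled batch 1 and replicates 4 and 5 batch 2, and what set the batches apart is not stated. The series title places the study in the field of autophagy and lysosome homeostasis.

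Lysosomes receive material from endocytosis and autophagy and break it down with acid hydrolases. The proton pump of the membrane acidifies the lumen, chloride, potassium and calcium channels balance the charge and release ions as signals, and transporters return amino acids, sugars, nucleosides and lipids to the cytoplasm. Many genes of this organelle carry an E-box of the form TCACGTGA near their start, the core of the element bound by the MiT/TFE transcription factors (Tfeb, Tfe3, Mitf), which are known to raise lysosomal gene expression.

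Promoter windows of 300 bases (250 before the annotated start and 50 after it, RefSeq, build GRCm38.p6) were at hand for 26 of the 29 genes, in 31 windows, and not for Tpcn1, Laptm4b and Npc1. The letters TCACGTGA, which read the same on both strands, were found in 6 of these 26 genes (23.1%), against 304 of all 27025 genes with a window (1.12%). The shorter form TCACGTG, searched on both strands and contained in the longer one, was found in 7 of 26 (26.9%) against 4.29% of all genes, and the bare core CACGTG in the same number against 8.09%. Of the 9 genes that were higher at 2% CO2, 5 held the 7-letter form (Lamp1, Mfsd1, Mcoln1, Clcn7 and Pip4p1), and of 17 genes with a window that were not called, 2 did (Slc36a1 and Cln3). These are matches of letters only, and no binding was measured. As the element is known from genes of this organelle, its excess over all genes is no result of these data. The genes with a window also include genes that were not tested here.

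The stretches that hold the matches are shown because they lie beside the starts of 5 of the genes that rose. Each runs 5′ to 3′ on the strand of the gene, from 16 bases before the first match to 16 after the last, with the 7- or 8-letter matches in capitals.
Lamp1 (chr8:13159083-13159167, plus strand, 4 copies): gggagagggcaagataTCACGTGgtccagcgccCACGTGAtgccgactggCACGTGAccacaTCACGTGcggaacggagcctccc
Mfsd1 (chr3:67582666-67582772, plus strand, 5 copies): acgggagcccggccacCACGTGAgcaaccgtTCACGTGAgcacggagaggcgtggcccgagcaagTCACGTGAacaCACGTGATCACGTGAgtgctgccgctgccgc
Mcoln1 (chr8:3500431-3500496, plus strand, 2 copies): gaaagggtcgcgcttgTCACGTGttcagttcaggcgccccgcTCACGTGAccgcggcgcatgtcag
Clcn7 (chr17:25133359-25133420, plus strand, 2 copies): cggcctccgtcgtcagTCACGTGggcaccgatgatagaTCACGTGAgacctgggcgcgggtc
Pip4p1 (chr14:50930881-50931072, minus strand, 2 copies): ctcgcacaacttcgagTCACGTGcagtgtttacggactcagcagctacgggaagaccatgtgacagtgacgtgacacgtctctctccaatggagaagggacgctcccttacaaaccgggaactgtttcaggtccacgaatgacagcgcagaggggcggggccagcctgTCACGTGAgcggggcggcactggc
Slc36a1 (chr11:55204293-55204359, plus strand, 2 copies): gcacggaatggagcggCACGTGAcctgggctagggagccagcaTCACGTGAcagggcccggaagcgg
Cln3 (chr7:126583335-126583401, minus strand, 2 copies): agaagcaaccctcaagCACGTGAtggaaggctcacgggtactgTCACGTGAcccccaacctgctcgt

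The Lamp1 copies begin 62, 45, 28 and 16 bases before the start and are all of the 7-letter form. Mfsd1 holds 3 copies of the 8-letter form, the last of which begins 19 bases before the start. In Mcoln1 the 8-letter form begins 46 bases and in Pip4p1 55 bases before the start. In Clcn7 it lies 6 bases after the start of the first of 2 annotated windows. The 2 genes with a match that were not called hold the 8-letter form as well, Slc36a1 4 bases before the start and Cln3 122 bases before the start of the second of its 2 annotated windows. A match was thus present in genes that were called and in genes that were not.

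**Figure D1:**
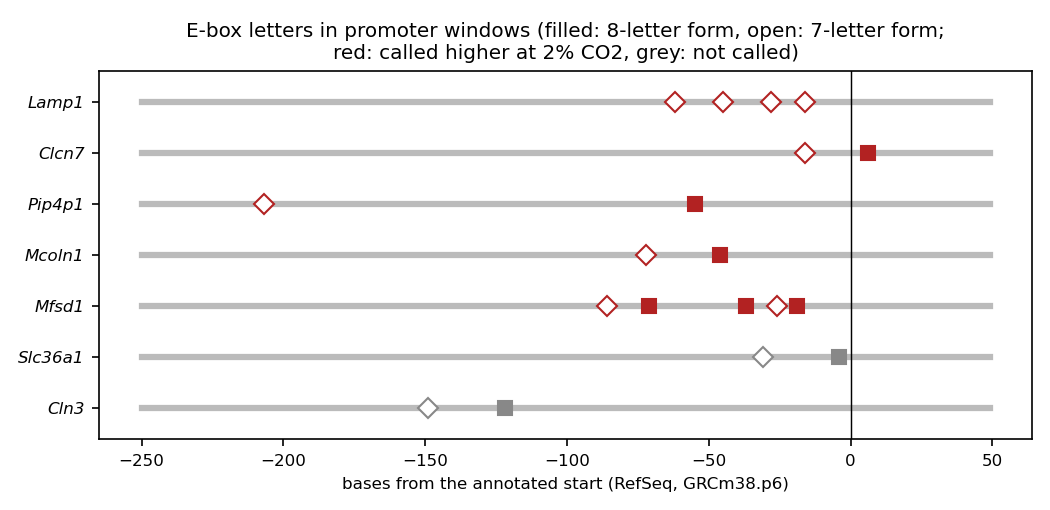
Positions of the E-box letters in the promoter windows of the 7 genes that hold them, in bases from the annotated start (0), with the window as a grey bar, filled squares for the 8-letter form and open diamonds for the 7-letter form. Genes are ordered by their log2 fold change, red for called higher at 2% CO2 and grey for not called. In Lamp1, Clcn7, Mcoln1, Mfsd1 and Slc36a1, the last of which was not called, every copy begins within 86 bases of the start. The farthest copies of Pip4p1, called higher, and Cln3, not called, begin 207 and 149 bases before it.

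Depth was uneven, from 178676 to 12354538 counts per library, and the shallow libraries were 2% CO2 replicates 2 and 3 (178676 and 506405 counts) and 10% CO2 replicate 5 (892318 counts). The median count of the 29 genes was 3 in the shallowest library and 374 in the deepest, so values of low genes in shallow libraries rest on few reads. Values are given as CPM (counts scaled to 1e+06 counts per library), replicates 1 to 5 in order. Fold changes are log2, 2% minus 10% CO2, from an edgeR quasi-likelihood fit with batch as a term and TMM scaling (a library factor that discounts shifts in the most abundant genes), and a gene is called at a Benjamini-Hochberg adjusted p under 0.05 over all 13198 genes tested. Of fibroblast markers 7 of 10 passed the filter, with summed levels of 4615 to 8605 CPM at 2% CO2 and 8289 to 12973 CPM at 10% CO2. Of these, 4 were called lower (Col1a1, Col1a2, Thy1 and Vim) and 0 higher. The marker S100a4 went the other way without being called (log2 fold change 0.82, edgeR adjusted p = 0.0541), and its levels did not overlap. Dcn, Lum and Pdgfra were at or near 0 with 34, 3 and 72 counts in all. None of the 9 macrophage markers passed the filter (summed levels of 0 to 2.35 CPM and 0.247 to 10.6 CPM), and Adgre1 and C1qa were at 0 in every library. Of the epithelial and endothelial markers 1 of 6 and 1 of 5 passed (summed levels of 2.28 to 30.8 and 7.90 to 15.6 CPM at 2% CO2, 4.70 to 9.40 and 4.48 to 8.43 CPM at 10% CO2), and the endothelial one, Kdr, rose (log2 fold change 0.98, edgeR adjusted p = 0.0134). The part of these differences in the results below was not tested. In bulk RNA, a change in the share of cells in some state and a change of RNA per cell cannot be told apart.

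The first comparison asked which lysosomal membrane transcripts differed between the CO2 levels. At 2% CO2, 9 of the 29 genes were higher (against 5.3% of all genes tested) and 1 was lower (against 6.73%), and 19 did not pass. The 29 genes were chosen with earlier results of these data known, so these shares are a description only. Where at least 10 CPM in 5 libraries were asked for, 9 of the 19 genes kept were higher and 0 lower. Of all 9090 genes kept by that filter, 689 were higher and 791 lower. The genes that rose were the cystine exporter Ctns, the glycoproteins Lamp1 and Lamp2, the chloride-proton exchanger Clcn7 with its subunit Ostm1, the calcium channel Mcoln1, Mfsd1, Pip4p1 and Tmem192, and the gene that fell was the cation channel Tpcn1. Rises were modest, from 1.40-fold for Lamp2 and Tmem192 to 2.23-fold for Ctns. The median log2 fold change over the 29 genes was 0.17, beside 0.0028 over all genes tested, and 21 of 29 lay above 0 against 50.4% of all genes. With scaling to library totals in place of TMM, 10 genes rose and 1 fell, while over all genes the balance moved from 700 higher and 888 lower to 1031 higher and 614 lower.

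By class, 3 of 7 genes of ion channels, exchangers and their subunits rose and 1 fell. Their median log2 fold change was 0.49, with a span from -0.98 to 0.74. Of 15 transporter genes 2 rose and 0 fell, with a median of 0.13 and a span from -0.52 to 1.16, where 2 genes lay below 0 at an unadjusted p under 0.05 (against 13.5% of all genes) and DESeq2 and limma-voom called no further gene. Of 7 genes for structural and other membrane proteins 4 rose and 0 fell, with a median of 0.48 and a span from 0.12 to 0.81, and no gene of this class lay below 0. The difference between the classes was not tested.

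**Figure D2:**
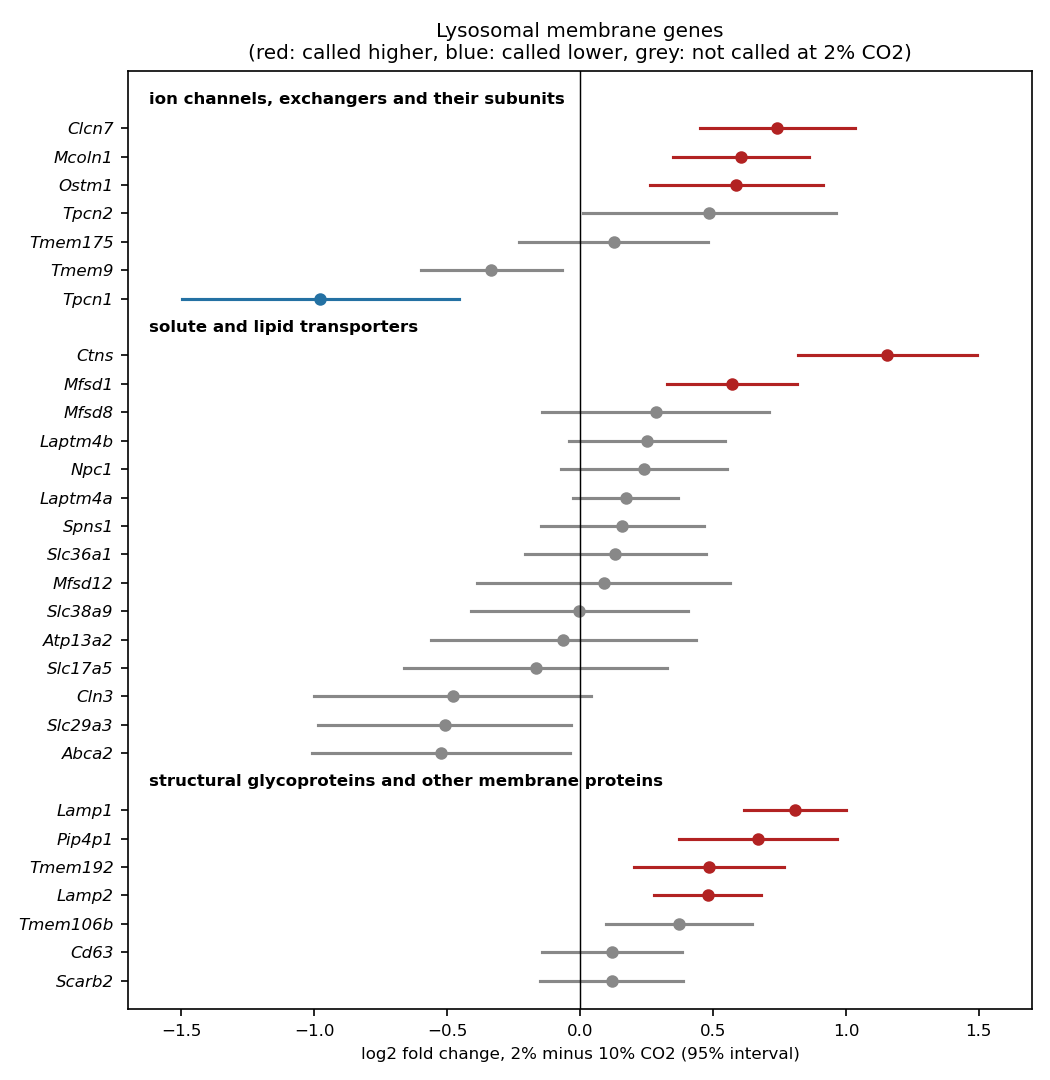
Log2 fold changes (2% minus 10% CO2, x axis) of the 29 genes by class, points with 95% intervals from the edgeR fit over all 10 libraries, red for called higher, blue for called lower and grey for not called. The 9 genes that rose lie between 0.48 and 1.16, Tpcn1 lies at -0.98, and the transporters spread on both sides of 0.

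Among the ion channels and exchangers, Clcn7 encodes the exchanger that brings chloride into lysosomes against protons. It was at 30.2, 25.4, 25.2, 24.6 and 15.7 CPM at 10% CO2 and at 33.9, 56.0, 45.4, 47.5 and 47.7 CPM at 2% CO2. The levels did not overlap, with the nearest libraries being replicate 1 of either level. The log2 fold change was 0.74 ± 0.14 (SE), with an edgeR adjusted p of 0.00198, and the means were 46.1 ± 7.91 and 24.2 ± 5.27 CPM (SD, n = 5 each). Ostm1 encodes the glycosylated subunit without which this exchanger is unstable. Its values were 14.4, 14.0, 12.7, 10.9 and 5.60 CPM at 10% CO2 and 18.7, 16.8, 25.7, 17.7 and 15.7 CPM at 2% CO2, again with no overlap. For Ostm1 the log2 fold change was 0.59 ± 0.15 (SE, edgeR adjusted p = 0.0191). The call was lost without 10% CO2 replicate 4 (adjusted p = 0.0618), without 2% CO2 replicates 3 or 4 (0.0513 and 0.0683), and without the 3 shallowest libraries (0.0575). Both genes of the exchanger thus had values above the 10% CO2 range in all 5 libraries at 2% CO2, and the Ostm1 difference rested on fewer counts (905 in all, against 2162.5 for Clcn7). In 2% CO2 replicate 2 Ostm1 had 3 counts and Clcn7 10, and in 10% CO2 replicate 5 they had 5 and 14. The lack of overlap for Ostm1 thus hangs on a few reads.

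Mcoln1 encodes the channel that releases calcium from lysosomes and is opened by a phosphoinositide of their membrane. It was at 24.6, 24.9, 25.9, 28.8 and 31.4 CPM at 10% CO2 and at 39.3, 39.2, 25.7, 49.9 and 53.3 CPM at 2% CO2. All libraries at 2% CO2 but replicate 3 lay above the 10% CO2 range, and replicates 2 and 3 rested on 7 and 13 counts. Mcoln1 rose by 0.60 ± 0.12 (SE) on the log2 scale in the edgeR fit (adjusted p = 0.00333), and by 0.71 (adjusted p = 0.00431) without the 3 shallowest libraries. Without 10% CO2 replicate 4 the adjusted p was 0.0531.

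Tpcn1, a 2-pore cation channel of endosomes and lysosomes, moved the other way. It was at 6.32, 7.23, 7.90, 8.58 and 6.72 CPM at 10% CO2 and at 3.81, 0, 0, 4.37 and 5.48 CPM at 2% CO2. No library at 2% CO2 reached the 10% CO2 range. The zeros came from the 2 shallowest libraries, where 3 counts, the limit that a count of 0 allows, equal 16.8 and 5.92 CPM and the first limit lies above every 10% CO2 value. In the fit its log2 fold change was -0.98 ± 0.25 (SE, edgeR adjusted p = 0.0152). Without the 3 shallowest libraries it was -0.89 (adjusted p = 0.0231), and without 10% CO2 replicate 4 or 2% CO2 replicate 4 the call was lost (0.117 and 0.0575). The gene had 392 counts in all libraries together.

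The other genes of the class of channels, exchangers and their subunits were not called. Tpcn2, the second channel of this pair, was at 4.48 to 10.0 CPM at 10% CO2 and 5.60 to 11.8 CPM at 2% CO2, with a log2 fold change of 0.49 (95% interval 0.010 to 0.96, edgeR adjusted p = 0.181). The pair thus had opposite signs, and whether their changes differ from each other was not tested. Tmem175, a potassium and proton channel that sets lysosomal pH, had a log2 fold change of 0.13 (interval -0.23 to 0.48). Tmem9, a membrane protein of late endosomes and lysosomes, was at 79.3 to 108 CPM at 10% CO2 and 57.3 to 95.4 CPM at 2% CO2, with a log2 fold change of -0.33 (adjusted p = 0.0937). Of 22 alternative settings 1 called it lower, the fit without 2% CO2 replicate 1 (-0.52, adjusted p = 0.0107), and without the 3 shallowest libraries it was at -0.18 (adjusted p = 0.408).

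**Figure D3:**
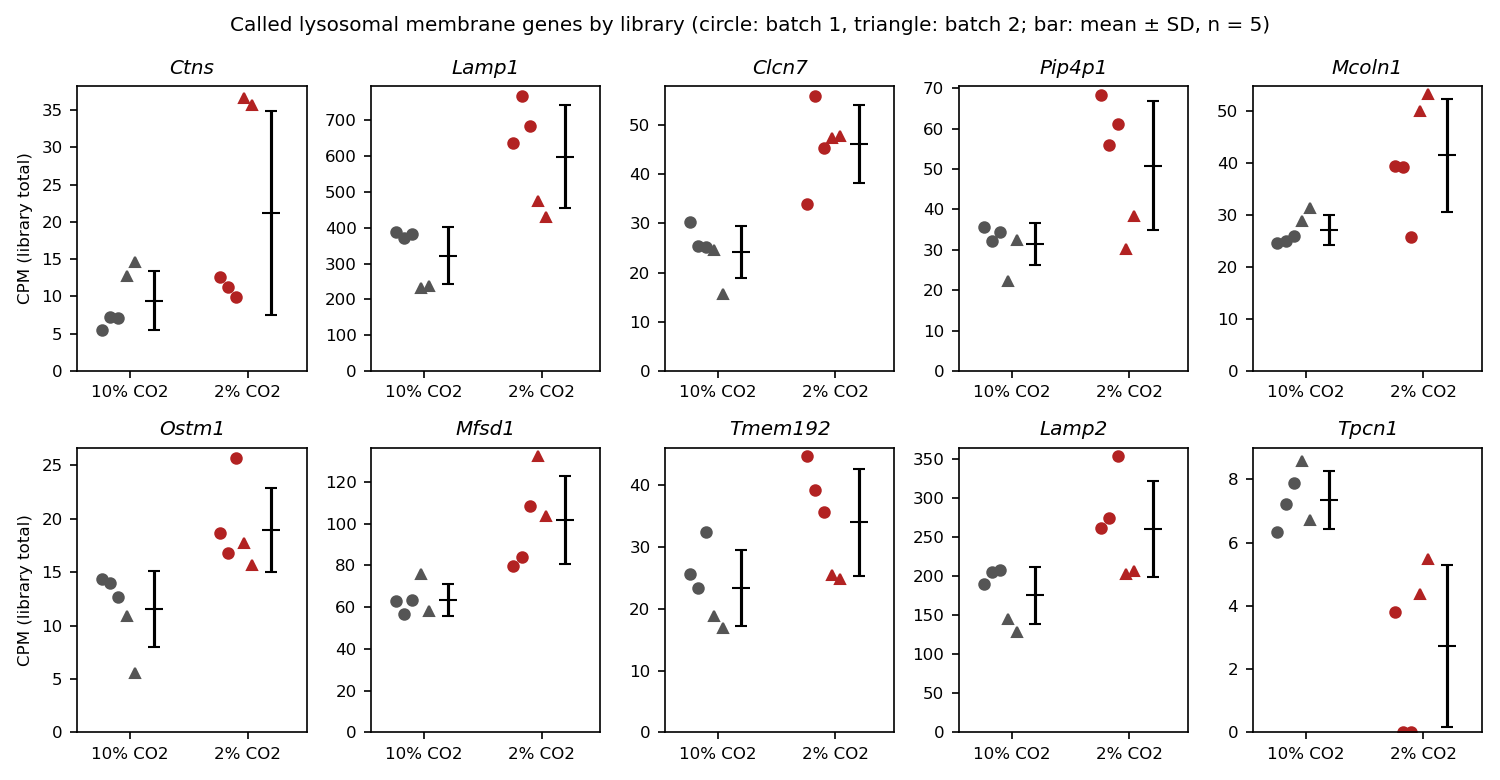
CPM of the 10 called genes in every library, grey at 10% CO2 and red at 2% CO2, circles for batch 1 and triangles for batch 2, with mean and SD (n = 5) as bars and every y axis starting at 0. Batch 2 lies below batch 1 in Lamp1, Lamp2 and Tmem192 at both levels and above it in Ctns, and Tpcn1 is at 0 in 2 libraries at 2% CO2.

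Among the transporters, Ctns rose most. It encodes cystinosin, which exports cystine together with protons and is lost in cystinosis. It was at 5.44, 7.23, 7.16, 12.7 and 14.6 CPM at 10% CO2 and at 12.6, 11.2, 9.87, 36.7 and 35.7 CPM at 2% CO2. The levels overlapped over all 10 libraries because batch 2 was higher at both, and did not overlap within either batch. The batch 1 values at 2% CO2 rested on 33, 2 and 5 counts, so the separation in that batch hangs on few reads. For Ctns the log2 fold change was 1.16 ± 0.16 (SE, edgeR adjusted p = 0.000150), a 2.23-fold rise that passed whichever single library was omitted. In batch 1 it was 0.83 and in batch 2 1.37, and the test of that difference gave an adjusted p of 0.641.

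Mfsd1, a dipeptide exporter, was at 63.0, 56.5, 63.3, 76.0 and 58.3 CPM at 10% CO2 and at 79.7, 84.0, 109, 133 and 104 CPM at 2% CO2. Every library at 2% CO2 lay above every one at 10% CO2. In the edgeR fit Mfsd1 rose by 0.57 ± 0.12 (SE) on the log2 scale (adjusted p = 0.00367), and each fit without 1 library called it.

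The other 13 transporter genes were not called, and their log2 fold changes ran from -0.52 to 0.28. Slc38a9, which signals lysosomal arginine to mTORC1, was at 5.60 to 8.77 CPM at 10% CO2 and 5.60 to 10.9 CPM at 2% CO2, a log2 fold change of -0.0023 (95% interval -0.41 to 0.41). Slc36a1, a proton-coupled carrier of small neutral amino acids, had a log2 fold change of 0.13 (-0.21 to 0.47), and Mfsd12, a cysteine importer, one of 0.089. The intervals of Slc38a9 and Slc36a1 leave room for changes of up to about 0.4 to 0.5 on the log2 scale.

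Transporters of lipids and nucleosides had values on both sides of 0. Npc1, which exports cholesterol, was at 17.2 to 28.0 CPM at 10% CO2 and 17.2 to 34.2 CPM at 2% CO2, with a log2 fold change of 0.24 (interval -0.07 to 0.55), and Spns1, a lysophospholipid exporter, had one of 0.16. Abca2, a lipid transporter, was at 4.74 to 6.79 CPM at 10% CO2 and 1.97 to 6.23 CPM at 2% CO2, with a log2 fold change of -0.52. Slc29a3, a nucleoside transporter, had one of -0.51. Both had unadjusted p-values under 0.05 and edgeR adjusted p of 0.155 and 0.160, so neither passed. Abca2 had 1 count in each of the 2 shallowest libraries.

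The sialic acid exporter Slc17a5 had a log2 fold change of -0.17 and the polyamine exporter Atp13a2 one of -0.06. Mfsd8 and Cln3, each mutated in a form of Batten disease, had log2 fold changes of 0.28 and -0.48 (edgeR adjusted p of 0.501 and 0.248). Laptm4a was at 304 to 361 CPM at 10% CO2 and 367 to 459 CPM at 2% CO2, so its levels did not overlap. Its log2 fold change was 0.17 (interval -0.025 to 0.37, adjusted p = 0.261), and that of its paralog Laptm4b was 0.25 (adjusted p = 0.270). Laptm4b had fractional counts in 6 libraries, which reads shared with related sequences can give, so its level is uncertain.

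Among the structural glycoproteins, Lamp1 and Lamp2 make up much of the glycoprotein coat that lines the lysosomal membrane. Lamp1 was at 388, 372, 382, 233 and 238 CPM at 10% CO2 and at 637, 770, 684, 475 and 431 CPM at 2% CO2. Every library at 2% CO2 lay above the highest at 10% CO2, and the separation was wider within each batch. The log2 fold change was 0.81 ± 0.091 (SE, edgeR adjusted p = 2.45e-05), the smallest adjusted p of the 29 genes. Lamp1 was the only one of them called in each batch alone (edgeR adjusted p of 0.00122 and 0.0202). It had fractional counts in 4 libraries. Its exons overlap those of Grtp1 on the other strand, which had 333 counts in all against 24536 for Lamp1.

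Lamp2, the paralog whose isoforms serve in autophagosome fusion and chaperone-mediated autophagy, was at 190, 205, 208, 145 and 129 CPM at 10% CO2 and at 262, 274, 353, 203 and 207 CPM at 2% CO2. Within each batch the levels did not overlap, while the 2 batch 2 libraries at 2% CO2 reached into the range of batch 1 at 10% CO2. Lamp2 rose by 0.48 ± 0.096 on the log2 scale (SE, edgeR adjusted p = 0.00315). Counts are per gene, so the isoforms were not told apart.

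Pip4p1, named as a phosphoinositide phosphatase and also known as Tmem55b, which recruits a dynein adaptor, was at 35.7, 32.3, 34.3, 22.3 and 32.5 CPM at 10% CO2 and at 68.3, 56.0, 61.2, 30.3 and 38.3 CPM at 2% CO2. The separation lay in batch 1, and in batch 2 the levels overlapped. The log2 fold change was 0.67 ± 0.14 (SE, edgeR adjusted p = 0.00498), with 0.92 in batch 1 and 0.37 in batch 2. It was lost without 2% CO2 replicate 1 (adjusted p = 0.0523). Its exons overlap those of the abundant DNA repair gene Apex1 on the other strand (10611 counts, against 2092 for Pip4p1, log2 fold change 0.11), and without a statement of strand the reads of this overlap cannot be assigned.

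Tmem192, a membrane protein often tagged to purify lysosomes, was at 25.6, 23.4, 32.3, 18.8 and 16.8 CPM at 10% CO2 and at 44.6, 39.2, 35.5, 25.4 and 24.8 CPM at 2% CO2. As with Lamp2, the levels parted within each batch and overlapped across them. Tmem192 rose by 0.49 ± 0.13 on the log2 scale (SE, edgeR adjusted p = 0.0244). It no longer passed without 10% CO2 replicates 1 or 4 (adjusted p of 0.0568 and 0.0575), without 2% CO2 replicates 1 or 4 (0.20 and 0.0567), and without the 3 shallowest libraries (0.0575).

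The tetraspanin Cd63 and Scarb2, the receptor that brings glucocerebrosidase to lysosomes, were not called. Cd63 was at 2236, 2315, 2731, 2144 and 2305 CPM at 10% CO2 and at 3359, 2376, 2329, 2671 and 2697 CPM at 2% CO2, and the ranges overlapped. Its log2 fold change was 0.12 (95% interval -0.14 to 0.38), and that of Scarb2 0.12 (-0.15 to 0.39). Without the 3 shallowest libraries Cd63 was at 0.37 (edgeR adjusted p = 0.0698). It had fractional counts in 5 libraries. Tmem106b, a glycoprotein whose fragments form filaments in ageing brain, was at 23.5 to 37.9 CPM at 10% CO2 and 38.5 to 95.1 CPM at 2% CO2, with no overlap. Its log2 fold change was 0.37 ± 0.13 (SE) with an edgeR adjusted p of 0.0707, and it passed in 2 of 22 alternative settings, with scaling to library totals (0.0459) and with the replicate number as a block (0.0304). It passed in 0 of the 10 fits that omitted 1 library, and without the 3 shallowest it was at 0.24 (adjusted p = 0.208).

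The libraries of the CO2 levels did not overlap for 6 genes in the direction of a rise (Lamp1, Clcn7, Ostm1, Mfsd1, Laptm4a and Tmem106b), against 3.19% of all genes tested. In the direction of a fall they did not overlap for Tpcn1, against 1.99% of all genes. Of the 6 genes, Laptm4a and Tmem106b were not called, and of the 9 genes called higher Ctns, Mcoln1, Lamp2, Pip4p1 and Tmem192 overlapped.

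The second comparison was made within each batch. In batch 1 (3 libraries against 3) Lamp1, Lamp2 and Pip4p1 were called higher, against 2.66% of 12275 genes, and 0 lower, against 3.56%, with 11 genes above and 3 below 0 at an unadjusted p under 0.05 (against 11.2% and 11.7% of all genes). In batch 2 (2 against 2) Lamp1, Ctns, Clcn7 and Mcoln1 were called higher, against 0.848% of 14627 genes, and 0 lower, against 0.978%, with 8 genes above and 2 below 0 at an unadjusted p under 0.05 (against 9.48% and 9.7%). The sign was the same in both batches for 25 of the 29 genes, beside 63.8% of the 12175 genes tested in both. All 10 called genes kept their sign in both batches, and the medians of the 29 genes were 0.23 in batch 1 and 0.19 in batch 2.

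The interaction of CO2 level and batch, which tests whether a difference differed between batches, was called by edgeR for 0 of the 29 genes (0% of all 13198 genes as well), and 1 gene, Pip4p1, had an unadjusted p under 0.05 (0.0493), against 8.75% of all genes. The smallest adjusted p was 0.570. Abca2 and Cln3 lay at -1.18 and -1.07 in batch 1 and at -0.26 and -0.20 in batch 2, on few counts in the shallow libraries of batch 1. Without a batch term only Clcn7, Ctns and Mfsd1 were called higher and no gene lower.

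**Figure D4:**
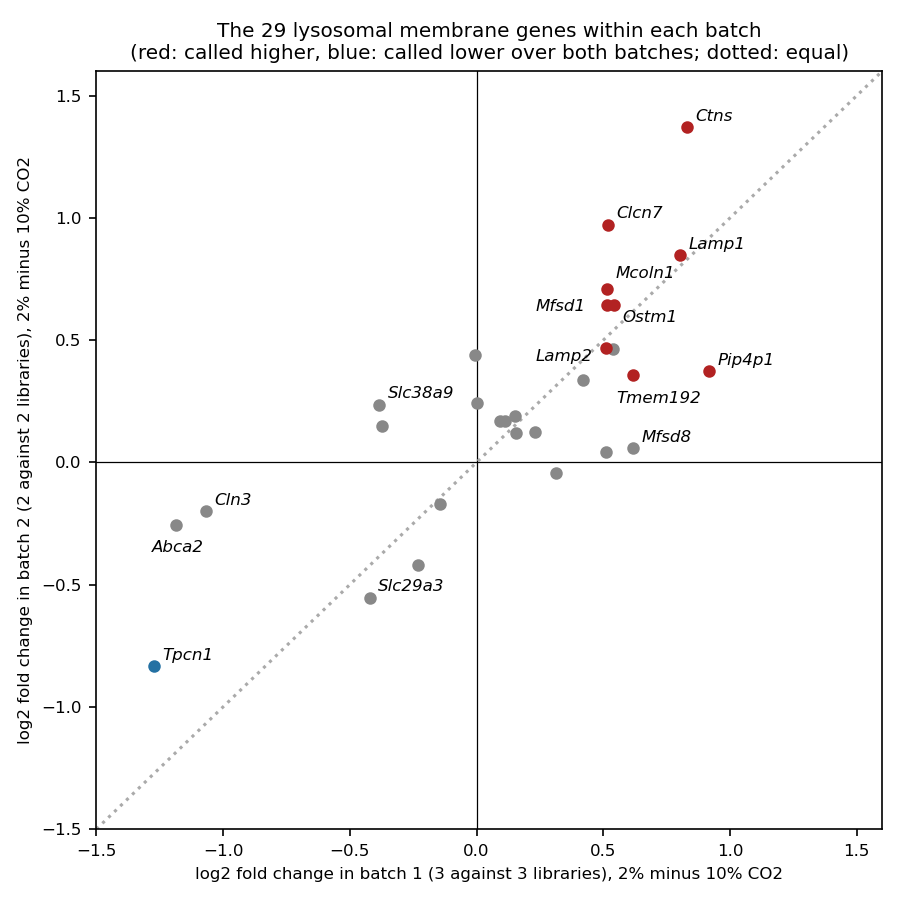
Log2 fold changes (2% minus 10% CO2) of the 29 genes in batch 1 (x axis) and batch 2 (y axis), red for called higher and blue for called lower in the fit over both batches, with a dotted line where both are equal. The 9 genes that rose lie in the upper right with at least 0.51 in batch 1 and 0.36 in batch 2, and Tpcn1 lies in the lower left at -1.27 and -0.83.

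A further 37 genes for lysosomal membrane proteins were examined to place the 29 among their kind. Of these, 30 passed the filter, 5 rose (against 5.3% of all genes tested), 2 fell (against 6.73%, a share near that of all genes) and 23 were not called, with a median log2 fold change of 0.11. Among those that rose were Slc38a7, a glutamine and asparagine exporter, at 0.89 ± 0.16 (SE, 19.7 ± 7.43 against 9.86 ± 1.94 CPM, SD, n = 5 each, edgeR adjusted p = 0.00165) and Slc66a1, an exporter of cationic amino acids, at 0.88 (adjusted p = 0.00799). Slc36a4, also an amino acid transporter, was not called, at -0.25 (adjusted p = 0.360). Pttg1ip and P2rx4, an ATP-gated cation channel, rose by 0.46 and 0.53 on the log2 scale, as did Slc35f6 by 0.49. The genes that fell, neither of which passed with scaling to library totals, were Clcn4, an endosomal exchanger related to Clcn7, at -0.48 (adjusted p = 0.0205) and Slc48a1, a heme transporter, at -0.47 (0.0392). The related exchanger genes Clcn3, Clcn5 and Clcn6 were not called, at 0.25, 0.013 and 0.55. Of the 31 of these genes with a promoter window, 5 held TCACGTG (16.1%, against 26.9% of the 26) and 2 held TCACGTGA (6.45%, against 23.1%). The genes not tested were Lamp3, Laptm5, Mcoln2, Mcoln3, Slc15a3, Slc46a3 and Abcb9, with 1 to 32 counts each in all libraries.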

How the data were processed

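Messenger RNA of 10 libraries was measured as estimated counts per gene, deposited by the authors without normalization, 71.0% to 79.2% of the nonzero values of a library being whole to within 1e-06. The submitters' processing notes name build GRCm39 and, among tools, MultiQC 1.32, Subread 2.1.1 with featureCounts, SAMtools 1.22.1 and STAR 2.7.11. The source of the fractions, the strand setting and any molecular identifiers are not stated there. A second deposited table holds CPM, which the authors' values show to be counts over the library total (greatest difference 4.8e-05), and was used for that check. All 92 spike-in entries were at 0 and were left out.

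After rounding to whole numbers, genes were filtered with filterByExpr on the CO2 level (the CPM of 10 counts at median depth, and 15 counts in total) and scaled by TMM. Under R 4.3.3, edgeR 4.0.16 then gave two-sided robust quasi-likelihood F tests of CO2 with batch as a term, with Benjamini-Hochberg adjustment over all genes. SE and 95% intervals follow from the F statistic. For some genes, among them Mfsd12, Mfsd8, Cln3 and Slc36a4, edgeR's lower bound on p gave a larger p than the interval implies. Members, lists and tests were chosen with earlier results of these data known, and every member is named. Of the other lysosomal membrane genes, those called were named (up to 4 a direction by the rule, and Slc35f6 beyond it), and Slc36a4, the Clcn paralogs and the genes not tested were chosen after their values were seen. Limits for a count of 0 are 3 counts and cover counting error only. On simulated counts (13185 genes tested for 2% against 10% CO2), 43.3%, 84.8% and 98.5% of genes changed 1.5-, 2- and 3-fold were recovered. Unchanged genes made up 15.3% of the calls, more than the share of 0.05 that the threshold names. The simulation changed few genes and held no batch difference. The share of false calls in the data may thus also exceed the threshold. Libraries of the same level and batch differed beyond sampling noise, so none was counted as a duplicate. Other settings tried were DESeq2 1.42.0, limma-voom from limma 3.58.1, scaling by RLE or by library totals, other filters, no batch term, a replicate block, rounding down, each batch alone, and libraries left out. Promoter letters come from RefSeq windows of GRCm38.p6, matched by symbol, and exon overlaps from GENCODE M21, used for names only. Exons of 10 of the 29 genes overlapped another gene, in each case on the other strand. By counts in all, Mfsd12 had 359 beside 1562 for Fzr1, Npc1 1568.5 beside 1683 for Rmc1, and Tmem175 687 beside 340 for Dgkq. Without the strand setting, the reads of such overlaps cannot be assigned.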

Additional observations from a re-analysis of the deposited data

Results flagged for a closer look

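In a group of 5 libraries, a value is listed here when its gap to the nearest library exceeds 0.71 of the range of the group. Chance gives this in about 1 of 20 groups where all values have the same normal spread. As depth differed between these libraries, that rate need not hold here. Of the 58 groups looked at (29 genes at each of 2 CO2 levels), 4 were listed, a share near that rate. In 2% CO2 replicate 2, the shallowest library, Mfsd8 was at 16.8 CPM on 3 counts with the next library at 8.98 CPM, and Slc29a3 was at 16.8 CPM on 3 counts with the next at 7.61 CPM. Tmem106b was at 95.1 CPM on 17 counts in the same library, with the next at 51.3 CPM. Pip4p1 was low in 10% CO2 replicate 4, at 22.3 CPM on 237 counts with the next library at 32.3 CPM.

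Slc38a9 lay lower at 2% CO2 in all libraries of batch 1 and higher in all libraries of batch 2, with log2 fold changes of -0.38 and 0.24. At 2% CO2 its batch 1 values rested on 16, 1 and 3 counts, and that of 10% CO2 replicate 5 in batch 2 on 5 counts. Both separations thus rest on few reads in shallow libraries. The fitted difference between the batches was 0.62, with an edgeR adjusted p of 0.675 for the interaction.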

How the results depend on the processing

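The count of 9 genes higher and 1 lower was also found with RLE scaling, DESeq2, limma-voom, no filter and rounding down. It was 3 and 0 with no batch term, 3 and 0 in batch 1 alone, and 4 and 0 in batch 2 alone. Where at least 10 CPM in 5 libraries were asked for it was 9 and 0. That filter kept 19 of the 29 genes, and Tpcn1 was among those left untested. Leaving out 1 library gave 6 to 9 genes higher and 0 to 2 lower, and leaving out the 3 shallowest 7 and 1, with Ostm1 and Tmem192 lost. Over the alternatives the median ran from 0.16 to 0.38, where 0.38 is the median of only the 19 genes kept by the 10 CPM filter. With all 29 genes tested the highest median was 0.26, with library totals. With library totals, 0 of the other lysosomal membrane genes were lower. The sign turned only for genes that were not called: Npc1 in batch 1 (-0.0048), Mfsd12 in batch 2 (-0.045) and in fits that left out a library (-0.11 to 0.36), Slc17a5 with no batch term (0.072), Cd63 (-0.020 to 0.18) and Scarb2 (-0.035 to 0.19) in fits that left out a library, Atp13a2 with library totals (0.0028), in batch 2 (0.15) and in fits that left out a library (-0.22 to 0.050), and Slc38a9 with library totals (0.065), limma-voom (0.042), no filter (0.0050), no batch term (0.079), in batch 2 (0.24) and in fits that left out a library (-0.11 to 0.11). The causes were not tested. With the replicate number as a block, 10 genes rose and 1 fell, the added gene being Tmem106b, and Slc38a9 was at 0.034. Same-numbered libraries, once each CO2 level's mean was taken out, correlated at 0.47, 0.093, 0.21, 0.64 and 0.17, and at 0.48, -0.32, 0.024, -0.015 and -0.62 with the batch means removed as well. As not every pair was over 0.1, the numbers were not taken as pairs.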

Other observations

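Levels of several of these genes differed between the batches at both CO2 levels. Lamp1 was at 372 to 388 CPM in batch 1 and 233 to 238 CPM in batch 2 at 10% CO2, and at 637 to 770 and 431 to 475 CPM at 2% CO2. Ctns ran the other way, at 5.44 to 7.23 CPM in batch 1 and 12.7 to 14.6 CPM in batch 2 at 10% CO2, and at 9.87 to 12.6 and 35.7 to 36.7 CPM at 2% CO2. The levels of Lamp2 and Tmem192 were also higher in every batch 1 library than in every batch 2 library of the same CO2 level, and those of Mcoln1 lower. No test of the batch difference was made.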
